A study of Mus musculus with 12 samples.

Results

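The MHC class II presentation genes described here are 8 genes of the 16971 in the deposited table, chosen by name as genes of the known pathway, with earlier results of these data known. They are *H2-Aa*, *H2-Ab1*, *H2-Eb1*, *Cd74*, *H2-DMa*, *H2-DMb1*, *H2-DMb2* and *Ciita*, and all 8 were listed. The study labelled cells with the *Prom1* lineage tracer in adult mice and followed them after bile duct ligation (BDL), a surgical block of bile flow that injures the bile ducts. All groups carried Prom1CreERT2-nLacZ/+;Rosa26Lsl-GFP/+ on C57BL/6 and received tamoxifen 7 days before surgery, so that cells with *Prom1*-driven Cre activity and their descendants became GFP(+). From the nonparenchymal fraction of each liver, 100000 GFP(+) cells were sorted for mRNA sequencing. The groups were day 0 (3 libraries, called sham by the labels and before BDL by the paper), BDL day 3 (3 libraries) and BDL day 14 (6 libraries, of which 4 stand behind the table). Unligated animals at the later times were not analysed here, so time and ligation cannot be told apart.

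MHC class II molecules show peptides from endosomes to CD4+ T cells. The alpha and beta chains pair in the endoplasmic reticulum around the invariant chain, which travels with them to late endosomes, where proteases trim it to a short peptide that the H2-DM heterodimer exchanges for antigen. Dendritic cells, B cells and macrophages express the genes constitutively or on activation, bile duct epithelium can acquire them in inflammation, and in most cells the transactivator CIITA sets whether they are transcribed. C57BL/6 mice make I-A but lack a working I-E alpha chain gene, so *H2-Eb1* is transcribed there without its partner.

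The table held the authors' mean of upper quartile normalized counts for each group, the value of the highest of the 10 libraries, which is not named, and the geometric mean over them. Single libraries could therefore not be printed and no test across libraries was possible. In place of each library's value, the range in which a library of a group had to lie is given, worked out from these 3 kinds of values. Each log2 ratio of group means is given with an approximate standard error (SE), taken from the gap between the geometric mean and the group means and assuming the same relative spread in all groups. Ratios beyond 2 SE are counted as a description and not as a test. Depth per library is unknown. The labelled cell type was checked against its markers. The 9 cholangiocyte and progenitor markers summed to 66.1 normalized counts on day 0, 28.0 on BDL day 3 and 37.8 on BDL day 14. The 7 macrophage markers summed to 4967, 8987 and 13990, of which *Lyz2* made up 2280, 4560 and 11200. On BDL day 14 against day 0, 1 of the 7 was over 1.5-fold higher, beside 21.2% of all genes tested. The most abundant cholangiocyte and progenitor markers were *Krt19* (21.5, 12.7 and 14.3), *Krt7* (10.9, 5.61 and 10.7) and *Epcam* (12.9, 4.97 and 7.69). *Prom1* and *Sctr* were named in addition. *Prom1* itself had means of 6.66, 0.956 and 1.76. *Sctr*, a bile duct receptor gene, lay under the filter on low values. On BDL day 3 its mean, 0.0729, was the lowest value of that group, shared by all genes from rank 15688 of 16971 down. It is thus a floor of the values and not a level particular to *Sctr*. The sorted populations thus held little RNA of the bile duct markers beside that of macrophages, and they are called GFP(+) cells here.

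Of the 8 genes, 6 lie within one stretch of chromosome 17 (mm10). The classical chain genes are *H2-Ab1* at chr17:34257689-34269419 (+), *H2-Aa* at chr17:34282744-34287823 (-) and *H2-Eb1* at chr17:34305867-34316674 (+). The H2-DM genes are *H2-DMa* at chr17:34119541-34139101, *H2-DMb2* at chr17:34143307-34151555 and *H2-DMb1* at chr17:34153072-34160230. *Ciita* lies at chr16:10480059-10528418. Class II promoters share an X box, bound by RFX and CREB, and a Y box, bound by NF-Y, which together form the platform for CIITA. RefSeq promoters of 300 bases (GRCm38.p6, 250 before to 50 after the start) were at hand for 5 of the 8 genes, without *H2-Ab1*, *Cd74* and *Ciita*. Searched on both strands for AAC and TGANG 2 or 3 bases apart (X) followed within 30 bases on the same strand by ATTGG (Y), 4 of the 5 held the pair, and *H2-DMa* did not. Over all 32851 promoters, 0.247% held it, 5.77% held X and 37.4% held Y. The letters were settled after these promoters had been read, so the match is a description. Below are the stretches of 2 classical chain genes, of *H2-DMb2* and of *H2-Ob*, a further class II gene, shown because the chains and *H2-DMb2* differed in direction while carrying the same pair; capitals mark X and then Y.
H2-Aa, chr17:34287853-34287916 (-): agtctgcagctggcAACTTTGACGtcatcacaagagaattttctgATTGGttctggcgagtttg
H2-Eb1, chr17:34305764-34305826 (+): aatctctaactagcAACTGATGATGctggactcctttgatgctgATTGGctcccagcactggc
H2-DMb2, chr17:34145114-34145177 (+): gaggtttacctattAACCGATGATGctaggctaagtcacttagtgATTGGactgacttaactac
H2-Ob, chr17:34238806-34238866 (+): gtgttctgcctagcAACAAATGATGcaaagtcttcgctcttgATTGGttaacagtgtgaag
The X match began 79 bases before the RefSeq start in *H2-Aa*, 89 in *H2-Eb1*, 121 in *H2-DMb2* and 85 in *H2-Ob*, with 17 to 21 bases between X and Y. In *H2-DMb1* the X letters were the same as in *H2-Eb1* and began 92 bases before the start.

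The GFP(+) cells already carried abundant class II transcripts on day 0. *Cd74*, which encodes the invariant chain, had the highest mean of the 8 genes, 975 normalized counts, and ranked 74 of the 16971 genes listed. *H2-Aa*, the I-A alpha chain gene, had a mean of 575 (rank 142), *H2-Eb1*, the I-E beta chain gene, 349 (rank 232) and *H2-Ab1*, the I-A beta chain gene, 325 (rank 240). The H2-DM genes were lower, with means of 104 for *H2-DMa*, which encodes the alpha chain, 84.8 for *H2-DMb1* and 33.2 for *H2-DMb2*, which encode alternative beta chains. *Ciita* had a mean of 9.12 and ranked 7796. Per kilobase of all annotated exons, day 0 levels were 581 normalized counts for *Cd74*, 180 for *H2-Eb1*, 151 for *H2-Aa* and 127 for *H2-Ab1*. They were 50.5 for *H2-DMb1*, 30.2 for *H2-DMa*, 19.0 for *H2-DMb2* and 0.956 for *Ciita*. The annotated exons can exceed the longest coding transcript, with 2568 against 1212 bases for *H2-Ab1* and 1944 against 1669 for *H2-Eb1*. The order between genes depends on this choice of length. On BDL day 14 the per-kilobase levels were 1114 for *Cd74*, 525 for *H2-Eb1*, 371 for *H2-Aa*, 341 for *H2-Ab1*, 82.7 for *H2-DMb1*, 41.8 for *H2-DMa*, 6.47 for *H2-DMb2* and 0.808 for *Ciita*, the order of day 0. Together the 8 genes made up 0.266% of the summed signal of all listed genes on day 0, 0.245% on BDL day 3 and 0.744% on BDL day 14.

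**Figure D1:**
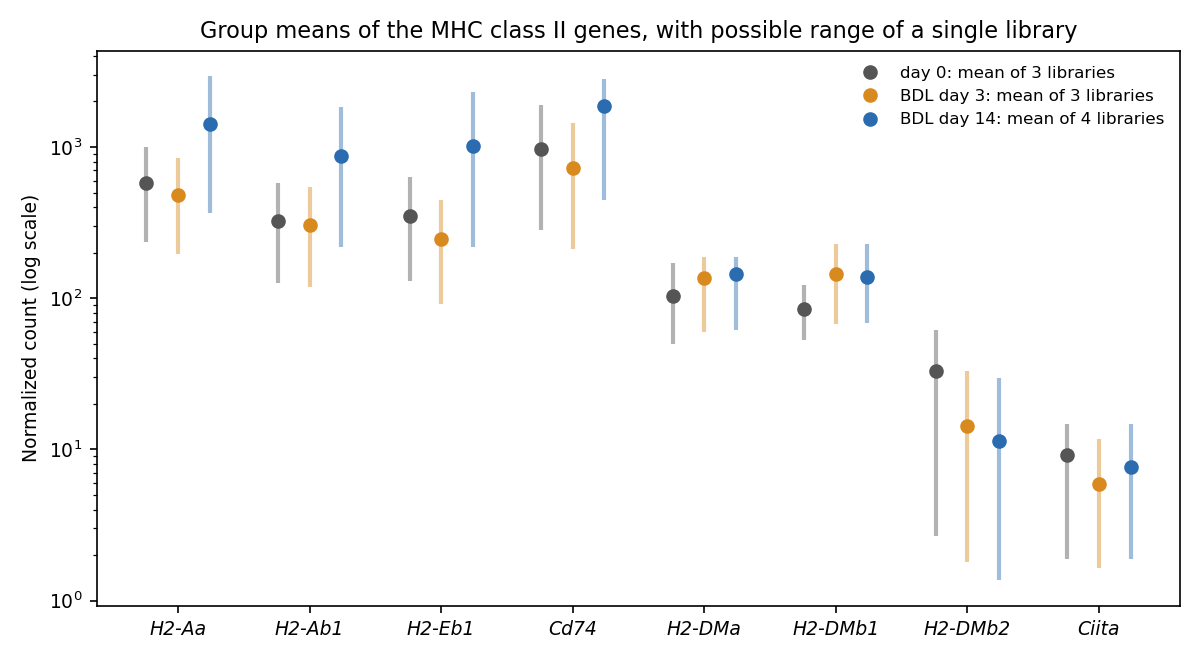
Mean normalized count (log scale) of the 8 MHC class II genes on day 0, BDL day 3 and BDL day 14; vertical bars show the range in which any single library of the group had to lie. The 3 chain genes and Cd74 have their highest mean on BDL day 14, H2-DMb2 has its highest on day 0, and for every gene the 3 ranges overlap.

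By BDL day 14 the 3 chain genes and *Cd74* had group means 1.92 to 2.92 times those of day 0, although 1 library held a large part of each increase. The mean of *H2-Aa* was 575 normalized counts on day 0, 481 on BDL day 3 and 1410 on BDL day 14, and its rank moved from 142 to 53. A single library of *H2-Aa* lay between 234 and 1006 on day 0, between 196 and 842 on BDL day 3 and between 364 and 2950 on BDL day 14. The groups can thus overlap, and BDL day 14 alone reached above 1006. The log2 ratio of BDL day 14 to day 0 was 1.29 ± 0.58 (SE) for *H2-Aa*, a fold of 2.45.

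*H2-Ab1* kept close to its partner chain. Its means were 325, 306 and 875 normalized counts, and single libraries lay between 127 and 579 on day 0, between 119 and 545 on BDL day 3 and between 217 and 1830 on BDL day 14. The log2 ratio of BDL day 14 to day 0 was 1.43 ± 0.59 for *H2-Ab1*, a fold of 2.69. The ratio of *H2-Aa* to *H2-Ab1* normalized counts was 1.77 on day 0, 1.57 on BDL day 3 and 1.61 on BDL day 14. *H2-Eb1* had means of 349, 246 and 1020, and a log2 ratio of BDL day 14 to day 0 of 1.55 ± 0.65 or 2.92-fold. Single libraries of *H2-Eb1* lay between 130 and 631 on day 0, between 91.6 and 445 on BDL day 3 and between 219 and 2310 on BDL day 14, so that here too the groups can overlap.

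*Cd74* lies at chr18:60803848-60812652. Its means were 975, 731 and 1870 normalized counts, with single libraries between 283 and 1909 on day 0, between 212 and 1431 on BDL day 3 and between 448 and 2830 on BDL day 14. The log2 ratio of BDL day 14 to day 0 was 0.94 ± 0.50 for *Cd74*, a fold of 1.92 that did not exceed 2 SE. The ratio of *Cd74* to *H2-Ab1* normalized counts was 3.00 on day 0, 2.39 on BDL day 3 and 2.14 on BDL day 14. The difference between the fold of *Cd74* and those of the chains was not tested. Against BDL day 3 the log2 ratios of BDL day 14 were 1.55 ± 0.58 for *H2-Aa*, 1.52 ± 0.59 for *H2-Ab1*, 2.05 ± 0.65 for *H2-Eb1* and 1.36 ± 0.50 for *Cd74*, each beyond 2 SE. In these bulk samples a larger share of cells with class II transcripts and more transcripts per cell cannot be told apart.

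The highest library of all 4 genes had to be one of BDL day 14. For the chains neither other group's sum could hold its value, and for *Cd74* the geometric mean was also needed to place it. It stood at 2950 normalized counts for *H2-Aa*, which was 52.3% of the sum of its group, and the other 3 libraries of BDL day 14 had a mean of 897, each between 364 and 1573. For *H2-Ab1* the highest library was at 1830 (52.3%) and the other 3 had a mean of 557. For *H2-Eb1* it was at 2310 (56.6%) against a mean of 590, and for *Cd74* at 2830 (37.8%) against a mean of 1550. The highest library was thus 3.29 times the mean of the others for *H2-Aa* and *H2-Ab1*, 3.92 times for *H2-Eb1* and 1.83 times for *Cd74*. Whether it was the same library for all 4 genes is not known, as the table does not name it. Without the highest library the folds of BDL day 14 over day 0 were 1.56 for *H2-Aa*, 1.71 for *H2-Ab1*, 1.69 for *H2-Eb1* and 1.59 for *Cd74*. These stayed above 1.5 but were well under the 2.45, 2.69 and 2.92 of all 4 libraries for the chains. Against BDL day 3 they were 1.86, 1.82, 2.40 and 2.12. The within-group SD of the log2 values, 0.76 for *H2-Aa*, 0.77 for *H2-Ab1*, 0.85 for *H2-Eb1* and 0.65 for *Cd74*, was above the median of 0.58 over all genes tested.

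**Figure D2:**
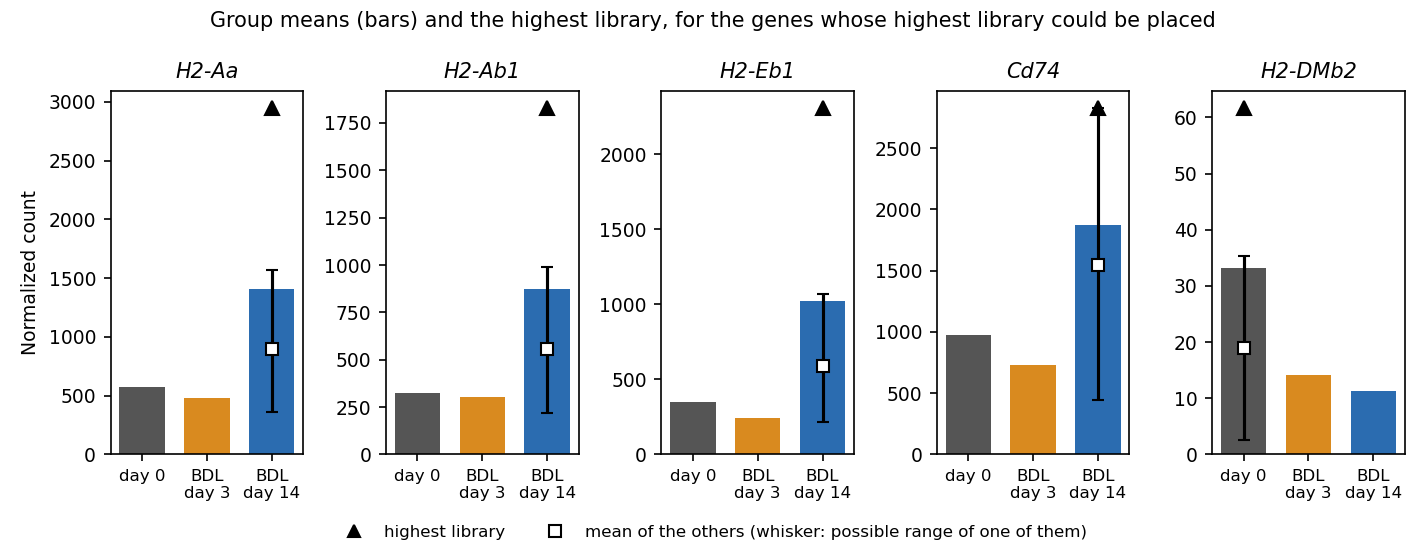
Group means (bars, normalized counts from 0) of the 5 genes whose highest library could be placed in a group, with that library (triangle), the mean of the others of its group (square) and the range of any one of them (whisker). The triangles of H2-Aa, H2-Ab1, H2-Eb1 and Cd74 stand over BDL day 14 at 37.8% to 56.6% of the group's sum, and that of H2-DMb2 stands over day 0.

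The product of the H2-DM genes loads the peptide. *H2-DMa* had means of 104, 135 and 144 normalized counts, with single libraries between 49.5 and 171 on day 0, between 60.0 and 186 on BDL day 3 and between 62.0 and 186 on BDL day 14. Set against day 0, its log2 ratio was 0.38 ± 0.31 on BDL day 3 and 0.47 ± 0.29 on BDL day 14, within 1.5-fold at both times. *H2-DMb1* had means of 84.8, 145 and 139, with single libraries between 52.6 and 122 on day 0, between 67.2 and 228 on BDL day 3 and between 68.2 and 228 on BDL day 14. It was 1.71-fold higher on BDL day 3 (log2 0.77 ± 0.33) and 1.64-fold higher on BDL day 14 (0.71 ± 0.31), both beyond 2 SE. *H2-DMb1* was the only one of the 8 genes whose ratio passed 2 SE on BDL day 3. *H2-DMa* and *H2-DMb1* varied less between libraries than most genes, with within-group SDs of 0.38 and 0.41 on the log2 scale. The ratio of *H2-DMa* to *H2-Aa* normalized counts went from 0.181 on day 0 to 0.281 on BDL day 3 and 0.102 on BDL day 14.

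*H2-DMb2* differed in direction from its neighbour *H2-DMb1*. Its means were 33.2, 14.2 and 11.3 normalized counts, and single libraries lay between 2.66 and 61.7 on day 0, between 1.79 and 33.2 on BDL day 3 and between 1.36 and 29.6 on BDL day 14. Against day 0 its log2 ratio was -1.23 ± 0.84 on BDL day 3 and -1.55 ± 0.78 on BDL day 14, neither beyond 2 SE, with folds of 0.428 and 0.340. Its highest library, at 61.7, had to be one of day 0 and held 61.9% of the sum of that group. Without it the folds were 0.749 on BDL day 3, within 1.5-fold, and 0.596 on BDL day 14. The ratio of *H2-DMb1* to *H2-DMb2* normalized counts was 2.55 on day 0, 10.2 on BDL day 3 and 12.3 on BDL day 14. Values of this pair are uncertain, because reads of one can be counted for the other. The longest coding transcripts of both, of 1404 and 1483 bases, were 94.8% identical over the aligned bases outside gaps, and 26.6% of the 50-base stretches of *H2-DMb1* occurred unchanged in *H2-DMb2*.

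*Ciita* remained a low transcript throughout. Its means were 9.12, 5.92 and 7.70 normalized counts, with single libraries between 1.89 and 14.8 on day 0, between 1.63 and 11.8 on BDL day 3 and between 1.87 and 14.8 on BDL day 14, ranges that lie almost over each other. Against day 0 its log2 ratio was -0.62 ± 0.60 on BDL day 3, a fold of 0.649, and -0.24 ± 0.56 on BDL day 14, a fold of 0.844. The ratio of *H2-Aa* to *Ciita* normalized counts was 63.0 on day 0, 81.3 on BDL day 3 and 183 on BDL day 14. Of the 7 genes of the enhanceosome, the RFX, NF-Y and CREB factors on which CIITA docks, 6 lay within 1.5-fold of day 0 at each time. The exceptions were *Creb1* on BDL day 3 (27.1 to 12.3 normalized counts, log2 -1.14 ± 0.14) and *Rfxank*, an RFX subunit, on BDL day 14 (8.90 to 3.23, log2 -1.46 ± 0.37), the latter named after its values were seen. The most abundant of the list, *Nfyc*, had means of 22.0, 28.2 and 23.0. *Rfx5*, *Rfxap*, *Rfxank* and *Nfyb* had means under 10 in every group and SEs of 0.34 to 0.48 against day 0. A steady level cannot be read from values this low. Over 1.5-fold, 19.2% of all genes tested were higher and 29.2% lower on BDL day 3, and 21.2% and 28.8% on BDL day 14. Interferon gamma drives *Ciita* through its receptor, JAK kinases and IRF1. The receptor chain gene *Ifngr1* had means of 266, 280 and 297, the kinase gene *Jak1* 182, 155 and 251, and *Irf1* 126, 92.4 and 63.1. *Ifng* lay under the filter on low values, with means of 1.26, 0.286 and 0.105.

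Over the 8 genes, the early and the late time differed. A gene was counted where its group means differed over 1.5-fold, the minimum fold used in the study. All 8 passed the filter, a summed normalized count of at least 10 over the libraries, as did 12891 genes in all. On BDL day 3 against day 0, 1 of 8 was higher (*H2-DMb1*), 2 were lower (*H2-DMb2* and *Ciita*) and 5 lay between, where 19.2% of all genes tested were higher and 29.2% lower. When the group means were instead quantile normalized, 26.7% of all genes were higher and 21.1% lower, and 0 and 4 of the 8. On BDL day 14 against day 0, 5 of 8 were higher (*H2-Aa*, *H2-Ab1*, *H2-Eb1*, *Cd74* and *H2-DMb1*), 1 was lower (*H2-DMb2*) and 2 lay between, beside 21.2% of all genes higher and 28.8% lower. On BDL day 14 against BDL day 3, 4 of 8 were higher and 0 lower, beside 21.2% and 19.7% of all genes. These 3 comparisons share groups and are not independent.

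The median log2 ratio of the 8 genes was -0.34 on BDL day 3 against day 0, where that of all genes was -0.02. On BDL day 14 it was 0.83 against day 0 and 0.87 against BDL day 3, where those of all genes were -0.04 and -0.0035. On BDL day 14 against day 0, *H2-Eb1* stood at the percentile 96.1 of all log2 ratios, *H2-Ab1* at 95.3, *H2-Aa* at 94.2 and *Cd74* at 89.0, while *H2-DMb2* stood at 12.7. Counted by 2 SE instead, 1 of 8 differed on BDL day 3 against day 0 beside 28.9% of all genes, and 4 on BDL day 14 against day 0 (the 3 chain genes and *H2-DMb1*) beside 33.0%. On BDL day 14 against BDL day 3 it was 4 (the 3 chain genes and *Cd74*) beside 24.9%. For 0 of 8 genes did the group means, the highest library and the geometric mean keep the libraries of any 2 groups from overlapping. By the group means and the highest library alone, such a gap was certain for 2.02% of all genes on BDL day 3 against day 0, 1.65% on BDL day 14 against day 0 and 0.582% on BDL day 14 against BDL day 3.

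**Figure D3:**
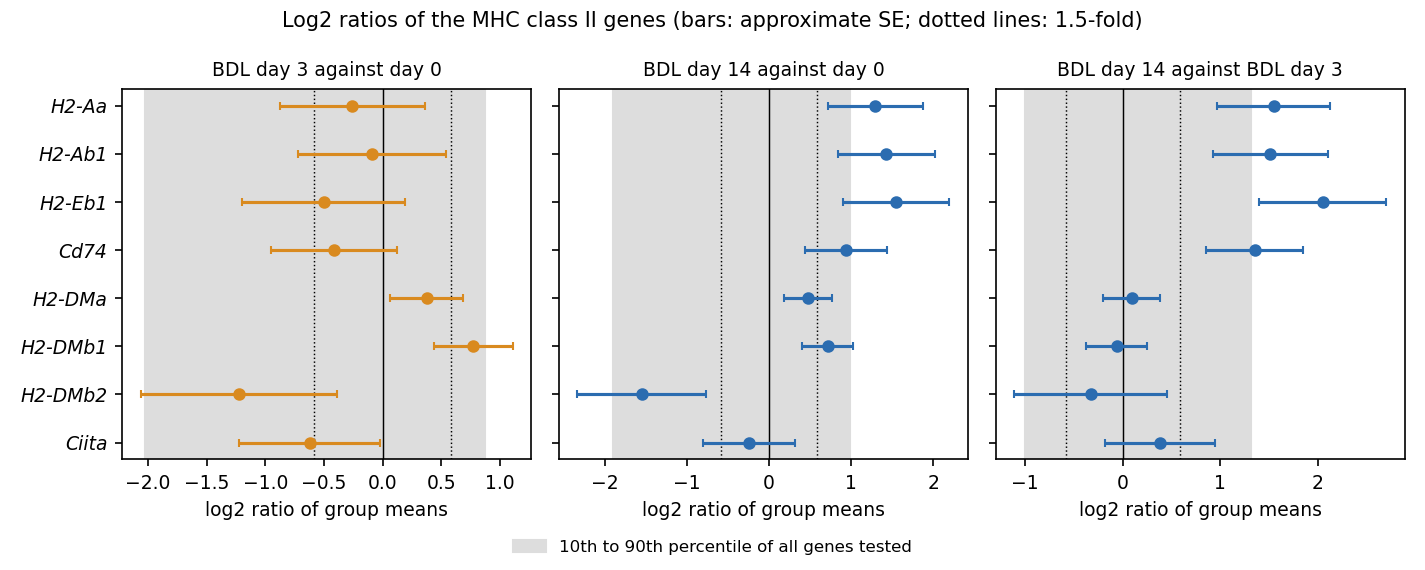
Log2 ratios of group means of the 8 genes in the 3 comparisons, with bars of 1 approximate SE, dotted lines at 1.5-fold and a grey band from the 10th to the 90th percentile of all genes tested. The 3 chain genes lie right of the band on BDL day 14 in both comparisons, and all 8 genes lie within it on BDL day 3 against day 0.

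The remaining class II chain genes did not move with the classical ones. *H2-Oa* and *H2-Ob* encode H2-O, which restrains H2-DM and is best known from B cells. *H2-Ob* had means of 35.1, 4.51 and 4.20 normalized counts (log2 -2.96 ± 0.91 on BDL day 3 and -3.06 ± 0.86 on BDL day 14), and *H2-Oa* of 9.73, 2.08 and 2.29 (-2.23 ± 0.66 and -2.09 ± 0.61). *H2-Eb2*, a further beta chain gene, had means of 3.44, 0.541 and 0.328. All 3 were lower than on day 0 at both times beyond 2 SE, beside 28.9% and 33.0% of all genes either way. Their highest library lay in day 0 with 61.6% to 67.8% of that group's sum. Without it the folds on BDL day 3 and BDL day 14 were 0.266 and 0.248 for *H2-Ob*, 0.389 and 0.428 for *H2-Oa*, and 0.273 and 0.166 for *H2-Eb2*. The 6 B cell markers, among them *Cd79a* and *Cd79b* of the B cell receptor, also had their highest means on day 0. They summed to 244 on day 0, 88.6 on BDL day 3 and 30.3 on BDL day 14. All 6 were over 1.5-fold lower on BDL day 14, beside 28.8% of all genes. The highest library of each lay in day 0 with 35.6% to 75.5% of the sum. The part of B cells in the values of *H2-DMb2*, *H2-Oa* and *H2-Ob* was not tested, and whether these genes share 1 day 0 library is not known. The 6 T and NK cell markers summed to 95.3, 29.5 and 7.88, also with every highest library in day 0.

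Endosomal processing genes were higher at both times after BDL, including BDL day 3, when the chain genes were not. Of the 6 proteases and reductases on the list, all were over 1.5-fold higher on BDL day 3 and 5 on BDL day 14, each beyond 2 SE. Of all genes tested, 19.2% and 21.2% were over 1.5-fold higher at these times, and 28.9% and 33.0% lay beyond 2 SE either way. The cathepsin gene *Ctsb* had means of 3350, 8410 and 7290 normalized counts, *Ctsd* of 1170, 4180 and 4650, and *Lgmn*, which encodes legumain, of 1470, 4000 and 2890. *Ctss*, whose product makes late cuts in the invariant chain, went from 1420 to 2430 and 3230. The exception was *Ifi30*, the gene of the lysosomal thiol reductase, with 483, 922 and 267 and a log2 ratio of -0.86 ± 0.32 on BDL day 14. *Ctss* and *Ifi30* were named after their values were seen. Among the genes of surface turnover, *March1*, a ligase that sends class II to lysosomes, had means of 58.9, 92.3 and 74.4, *March8*, a related ligase, 13.1, 24 and 29.9, and *Cd83*, which opposes MARCH1, 89.1, 69.9 and 39.6. Of the 5 costimulatory genes, 0 were over 1.5-fold higher and 2 lower on BDL day 14 against day 0, beside the 21.2% and 28.8% of all genes. *Cd86* had means of 85.4, 142 and 51.1, *Cd40* of 17.3, 29.6 and 12.5 and *Cd274*, which encodes PD-L1, of 17.9, 14.9 and 17.7. *Icosl*, named after its values were seen, had means of 13.9, 6.28 and 19.8, the order of groups of the chain genes.

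Markers of the myeloid cells that the sort could hold also differed between the groups, and not all in the direction of the class II genes. The 6 Kupffer cell markers, among them *Clec4f* and *Timd4*, summed to 9250 normalized counts on day 0, 20907 on BDL day 3 and 1278 on BDL day 14. All 6 were lower on BDL day 14 than on day 0 beyond 2 SE, beside 33.0% of all genes either way. The 5 recruited monocyte markers summed to 73.6, 143 and 1645, with *Chil3* at 14.7, 90.4 and 858 and *F13a1* at 10, 23.5 and 334. *Ccr2* was at 15.3, 12.2 and 161, *Cx3cr1* at 11.7, 9.06 and 285, and *Ly6c2* at 21.9, 8.19 and 6.69. *Ccr2*, *Cx3cr1* and *Ly6c2* were picked with their values in view. By group means all 3 were lower on BDL day 3 than on day 0, and *Ly6c2* was also lower on BDL day 14. None of these lower ratios was beyond 2 SE, and *Ccr2* and *Cx3cr1* lay within 1.5-fold on BDL day 3. *Ly6c2* was over 1.5-fold lower at both times, beside 29.2% and 28.8% of all genes. For 4 of the 5 the highest library lay in BDL day 14, with 33.4% to 66.9% of its sum. Of the dendritic cell markers 8 of 9 were listed, summing to 1072, 1556 and 1241, nearly all of it *Cst3*. For *Cd209a*, *Zbtb46*, *Itgax* and *Flt3* the highest library lay in BDL day 14, with 40.1% to 90.8% of the sum, and for *Clec9a* and *Ccr7* in day 0. The 5 sinusoidal endothelial markers summed to 675, 262 and 782, with 0 of 5 beyond 2 SE on BDL day 14 against day 0, beside the same 33.0%. The summed means of the 3 chain genes and *Cd74* were 2224, 1764 and 5175. The 4 plasmacytoid dendritic cell markers summed to 207, 192 and 129 and the 4 hepatocyte markers to 2772, 795 and 335. No gene was listed at 0, the lowest means being 0.128 on day 0, 0.0729 on BDL day 3 and 0.061 on BDL day 14. A listed value alone thus does not show that a marker was detected. The part of each cell type in the class II values was not tested.

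Set against single macrophage genes, *H2-Ab1* did not keep a fixed proportion. Its ratio to *Adgre1*, which encodes F4/80, was 1.29 on day 0, 0.586 on BDL day 3 and 2.31 on BDL day 14. The ratio of *H2-Ab1* to *Csf1r*, the receptor gene for the macrophage growth factor, was 0.239, 0.143 and 0.711, and to *Cd68*, a lysosomal glycoprotein gene, 0.640, 0.291 and 1.35. Against *Lyz2*, the lysozyme gene, it was 0.143, 0.0671 and 0.0781, since *Lyz2* went from 2280 to 4560 and 11200. The ratio was thus lowest on BDL day 3 against each of the 4 genes, and on BDL day 14 it was above day 0 for 3 of them and below it for *Lyz2*. These are ratios of group means without an SE. On BDL day 14, 1 library held 52.3% of the *H2-Ab1* sum, and the others had a mean of 557 instead of 875. Ratios without that library cannot be given, as its values for the macrophage genes are not known.

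**Figure D4:**
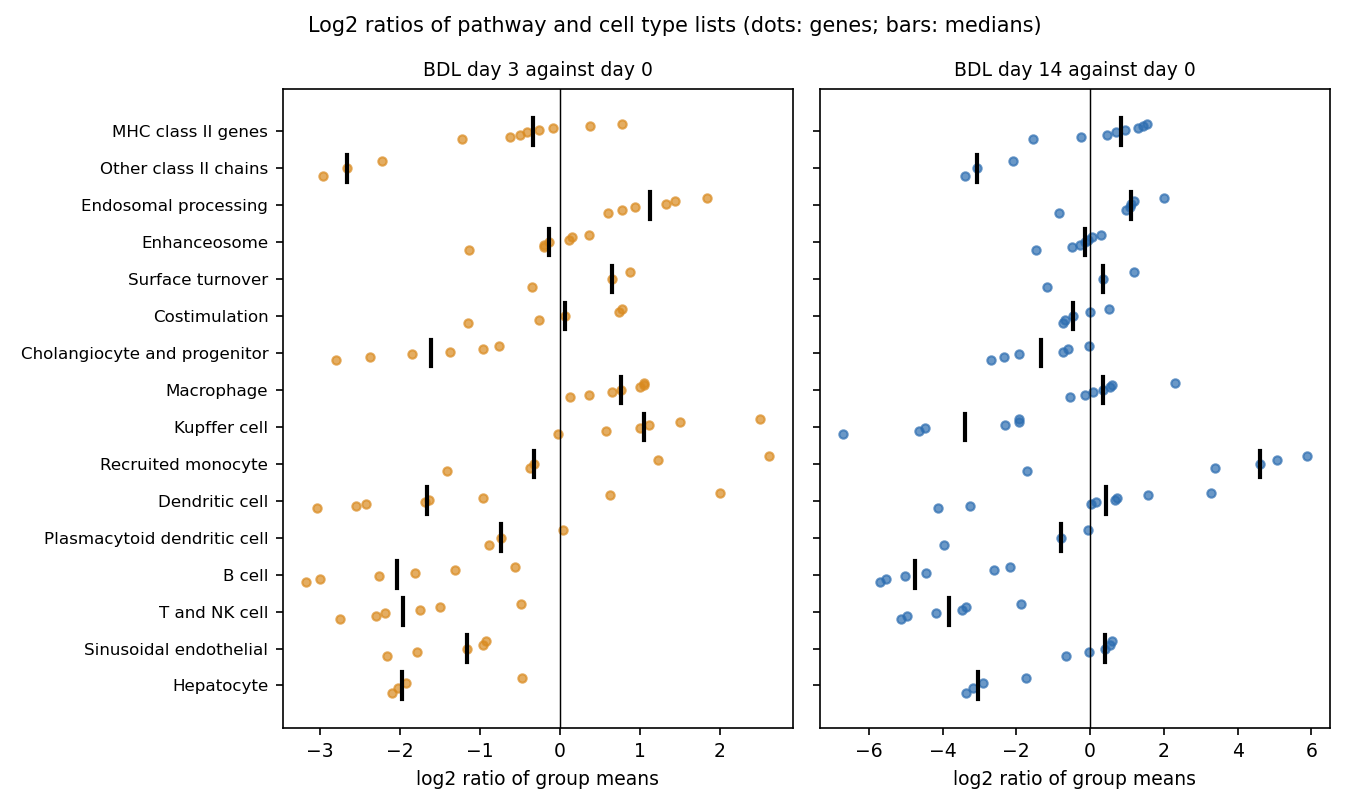
Log2 ratios of group means against day 0 on BDL day 3 and BDL day 14 for the 8 MHC class II genes and for the pathway and cell type lists, with 1 dot for each gene tested and a bar at each list's median. The class II genes have medians of -0.34 and 0.83, the other class II chains and the B cell markers lie left of 0 at both times, and the Kupffer cell markers lie left of 0 on BDL day 14.

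Likeness to the class II genes was taken over the 3 group means. Of 1962 genes with a mean of at least 50 normalized counts, 7 lay within 0.25 log2 units of the members' median ratios. The nearest were *Capn2* at a distance of 0.083, *Mxd4*, *Plxnd1*, *Calm2* and *Rpl5*. Since the median mixes genes of opposite direction, likeness was also taken to the median of *H2-Aa*, *H2-Ab1*, *H2-Eb1* and *Cd74*, a choice made after the values were seen, and 15 genes lay within 0.5 log2 units of it. The nearest genes were then *Stab1*, with means of 176, 131 and 420, *Selenop* (1710, 1390 and 3850), *Plpp1* (50, 33.4 and 132), *Vim* (268, 244 and 619) and *Lsp1* (118, 110 and 373).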

How the data were processed

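The labels list 12 libraries of GFP(+) cells (day 0: 3, BDL day 3: 3, BDL day 14: 6), and 2 unnamed ones of BDL day 14 do not enter the table. The authors trimmed reads (minimum quality 20, minimum length 25 bases), aligned them to mm10 with STAR (version 2.6.1d in the submitters' processing notes), counted them on GENCODE genes and normalized by upper quartile in Partek Flow. The deposited signal values are group means and a sum over the libraries, with the highest library value and the geometric mean over libraries. The table has 0 columns per library. Columns of the authors' own comparisons (p-values, fold changes and limits) were not used. Group sizes of 3, 3 and 4 gave back the deposited sum within 0.488% for 99% of genes. The labels do not name the animal of a library. Per the paper, day 0 had 1 male and 2 female mice, BDL day 3 had 2 males and 1 female, and BDL day 14 had 3 males and 1 female, so sex was not balanced over the groups.

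Genes with a summed normalized count under 10 were left out. Ratios, ranges of single libraries and the SE (7 residual degrees of freedom) were computed in Python 3.11.15 with pandas 2.3.3 and numpy 2.4.6. Ranges and SE were tested on simulated data. The SE, and ranges that use the geometric mean, were added after the data had been seen. No pseudocount was used. All genes of the lists are named by rule, with values for at most 3 per list by highest mean, and exceptions are stated. The alternatives were a pseudocount, other filters, median-ratio scaling or quantile normalization of group means, a 2-fold minimum, wider ranges and leaving out the highest library. The members and lists were chosen with earlier results of these data known. Symbols turned into dates (21) were restored by coordinates, among them *March1* and *March8*. The interferon gamma list is not reported in full here.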

Additional observations from a re-analysis of the deposited data

How the results depend on the processing

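No class II gene past 1.5-fold changed direction under an alternative run. The log2 ratios of the single genes kept their side of 1.5-fold in 133 of the values recomputed, became weaker in 5 and stronger in 3. Many of the 133 could not change. The 21 with a mean of at least 10 were the same ratios. Leaving out the highest library altered only ratios of the group in which it was placed. Median-ratio scaling, with factors of 1.022, 1.005 and 0.9996, moved the ratios little. Within 1.5-fold, *H2-DMb1* on BDL day 14 against BDL day 3 went from -0.06 to 0.12 with quantile normalization. The counts of BDL day 14 against day 0 held except with a minimum fold of 2, where 3 of 8 genes were higher. On BDL day 3 against day 0, the count of lower genes was 2 and became 1 with a pseudocount of 1 (*Ciita* at -0.55), 1 with a mean of at least 10 (*Ciita* then being left out), 1 with a minimum fold of 2, 1 without the highest library by either way of placing it (*H2-DMb2* at -0.42) and 4 with quantile normalization. The count of higher genes was 1 and became 0 with quantile normalization (*H2-DMb1* at 0.51) and 0 with a minimum fold of 2. Quantile normalization, which moved the median of all genes to 0.12, also took the median of the 8 genes from -0.34 to -0.63, with *H2-Aa* at -0.69, *H2-Eb1* at -0.91, *Cd74* at -0.79 and *Ciita* at -0.30. The cause was not tested. No paired analysis was possible because the table has no value per library, and for the same reason no replicate other than the unnamed highest library could be left out. The error of counting cannot be given without each library's depth, and the SE rests on equal relative spread in the 3 groups.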
